A study of Mus musculus with 9 samples.

Results

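The LDL receptor-related protein family was followed here through 10 of the 46078 genes in the count table: Lrp1, Lrp2, Lrp4, Lrp5, Lrp6, Lrp8, Lrp10, Lrp11, Lrp12 and Vldlr. They were picked by symbol. Where a symbol has several rows the row is chosen by its count summed over all 9 ovaries, but each of these symbols had 1 row. The family was proposed with the difference between the genotypes already known, so that the values and tests below describe these genes and are no independent evidence about the family. All 10 members were among the 16722 genes that passed the filter on low counts.

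The RNA-seq data came from 9 whole ovaries on the C57BL/6J background, 5 from WT and 4 from ERβKO mice, with 1 library for each. ERβ, encoded by Esr2, is the estrogen receptor of granulosa cells, and the ERβKO mice lack its exon 3 in every tissue, after deletion in the germline with a Cre recombinase under the Rosa26 promoter. The labels call all 9 ovaries untreated, but the treatment text that the samples share describes a high-fat or control diet and injections of DPN, an agonist of ERβ, or vehicle. Which diet these 9 mice had was not settled from the sources used here, and its part in the values of lipoprotein receptors was not tested. The mice of the study were 4 to 20 weeks old and were not sorted by stage of the estrous cycle, so that stage and age can differ between these ovaries. Nothing in the labels ties a WT to an ERβKO mouse.

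Most but not all receptors of this family are built from ligand-binding repeats and propeller domains on a single membrane-spanning stretch. Lrp1 and Lrp2 (megalin) are large endocytic receptors, Lrp8 (apolipoprotein E receptor 2) and Vldlr bind reelin and lipoproteins, Lrp5 and Lrp6 are the coreceptors of Wnt with Frizzled, and Lrp4 is the receptor of agrin. In the ovary, lipoprotein receptors supply cholesterol for steroid synthesis, above all in the corpus luteum.

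The libraries held 12353740 to 18717510 counted fragments. The count of Esr2 runs over the whole gene and did not separate the genotypes (12.4 to 23.9 FPKM in WT and 10.5 to 23.7 FPKM in ERβKO), so that it does not check the deletion of 1 exon. On the first principal component, which held 35.9% of the variance, WT replicate 2 scored 9.4 while the other WT ovaries scored -43.8 to -15.6 and the ERβKO ovaries 19.4 to 35.3. Of 11 lists of cell type markers, none was without signal, and none held a marker below 1 FPKM in all 9 ovaries. The 9 luteal markers summed to 3127 to 6725 FPKM in WT and 2582 to 4069 FPKM in ERβKO, and the 10 granulosa markers to 552 to 685 and 679 to 946 FPKM. The 6 markers of oviduct epithelium summed to 1391 to 2521 FPKM in WT and 1631 to 2072 FPKM in ERβKO, so that RNA of the oviduct was present in every sample. In whole ovaries fewer cells of a type and less RNA per cell cannot be told apart.

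Of the 10 members, 3 were called between the genotypes, Lrp8 and Lrp11 as lower and Lrp5 as higher in ERβKO ovaries. A call required a Benjamini-Hochberg adjusted p under 0.05 over all tested genes in edgeR's quasi-likelihood test, a log2 fold change beyond 0.4 in either direction and a mean FPKM above 1 in 1 genotype or both. Of all tested genes 1.72% were called, 0.915% as higher and 0.801% as lower. Since the members were proposed with this contrast in view, nothing is read from the difference between these shares. The median log2 fold change of the members was -0.07, beside 0.00 over all tested genes. The FPKM of the ERβKO ovaries lay wholly below those of the WT ovaries for Lrp8 and Lrp11, against 3.31% of all tested genes, and wholly above for Lrp4 and Lrp5, against 4.29%.

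**Figure D1:**
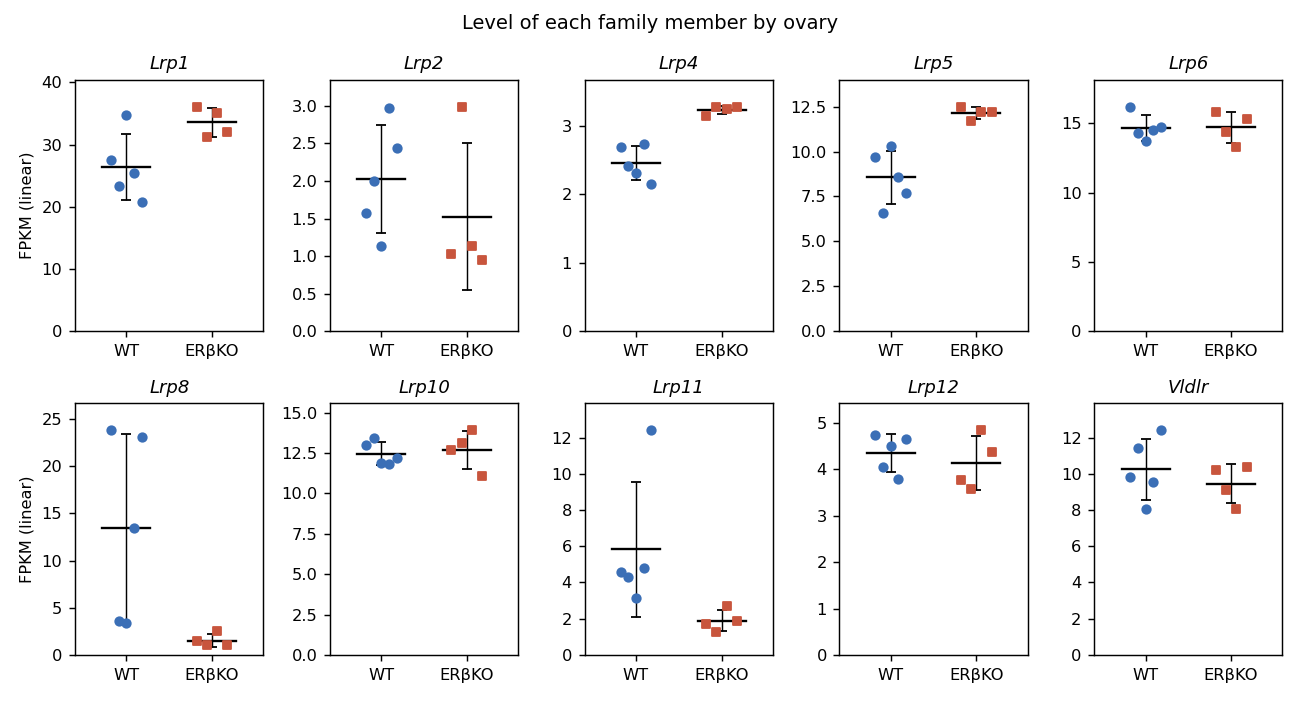
FPKM of the 10 members in 5 WT (circles) and 4 ERβKO ovaries (squares), each panel with its own linear axis from 0; the horizontal line is the mean and the error bar 1 SD. Lrp8 and Lrp11 are lower and Lrp4 and Lrp5 higher in every ERβKO ovary than in every WT ovary, while the genotypes overlap for the other 6 members.

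Lrp8 had the largest difference of the family. Its gene lies on the plus strand of chromosome 4 (GRCm38, chr4:107802261-107876840), and GENCODE M21 lists 12 transcripts for it, 5 of them coding. Lrp8 stood at 23.8, 3.61, 3.35, 13.4 and 23.1 FPKM in WT replicates 1 to 5 and at 1.43, 1.04, 2.51 and 1.04 FPKM in ERβKO replicates 1 to 4. The WT ovaries fell apart into 3 with 13.4 FPKM or more and 2 with about the same low value, and the WT ovaries differed 7.11-fold among themselves against 2.41-fold in ERβKO. The mean was 13.4 ± 9.98 FPKM (SD, n = 5) in WT and 1.51 ± 0.692 FPKM (SD, n = 4) in ERβKO. The log2 fold change of the count was -3.08 (SE 0.590, 95% interval -4.39 to -1.77, edgeR adjusted p = 0.0317). The 2 lowest WT ovaries lay just above the highest ERβKO ovary, so that the size of the fold rests on WT replicates 1, 4 and 5.

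The same 3 WT ovaries were also above the other 2 in 6 of the 9 luteal markers. This split was taken from the values of Lrp8. The share of all tested genes that show it was not counted, so that nothing is read from the 6 of 9. On the first principal component WT replicates 1, 4 and 5 scored -36.7, -21.9 and -43.8, and replicates 2 and 3 scored 9.4 and -15.6. The luteal markers summed to 6210, 4165 and 6725 FPKM in WT replicates 1, 4 and 5 and to 3127 and 3900 FPKM in replicates 2 and 3. Among them Scarb1, the receptor that takes up cholesterol esters from high-density lipoprotein, was singled out after its values were seen, with 310.8, 105.8, 105.1, 213.2 and 405.6 FPKM in WT replicates 1 to 5, which sets the 5 ovaries apart in the way Lrp8 does. In ERβKO Scarb1 had 90.7 to 174 FPKM, a range that holds the values of WT replicates 2 and 3. The luteal sum of ERβKO replicate 3, 4069 FPKM, lay above those of WT replicates 2 and 3. Akr1c18 alone gave 471 FPKM of it, against 70.8 and 26 FPKM in WT replicates 2 and 3. Without this marker the sum would lie below that of WT replicate 3. The Lrp8 of ERβKO replicate 3, 2.51 FPKM, lay below that of both WT ovaries. Of the luteal markers 8 of 9 had a negative log2 fold change, while 8337 of all 16722 tested genes had a positive one. For none of the luteal markers did the genotypes lie wholly apart. In edgeR 0 of the 9 were called and 4 had an unadjusted p under 0.05, as had 19.8% of all tested genes, while DESeq2, which called 4.8% of tested genes, called 2 of them, Star and Cyp11a1. The part of luteal tissue in the difference of Lrp8 was not tested.

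**Figure D2:**
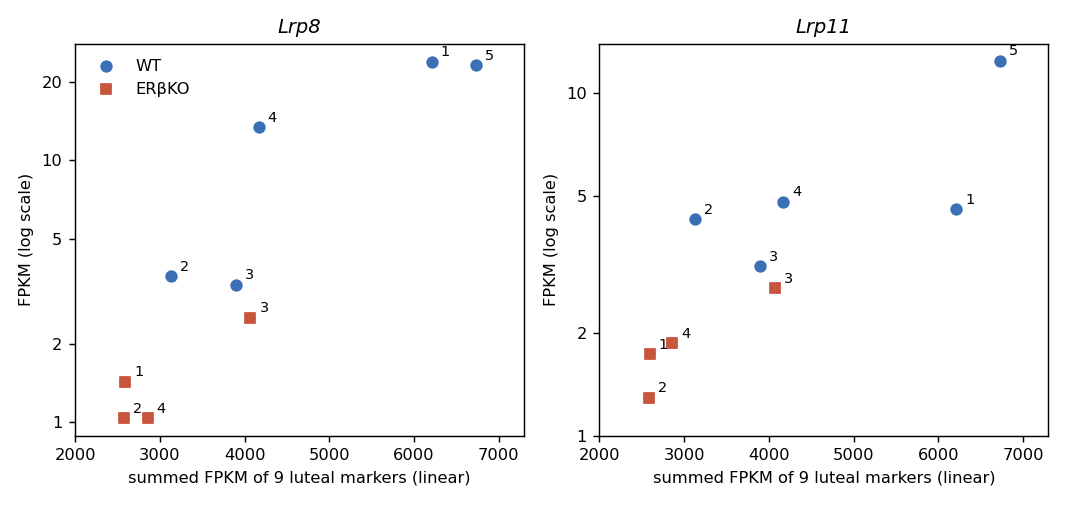
FPKM of Lrp8 and Lrp11 (log axis) against the summed FPKM of 9 luteal markers (linear axis) in each ovary, with the replicate number beside the point, for 5 WT (circles) and 4 ERβKO ovaries (squares). WT replicates 1 and 5 have the highest luteal sums and the highest Lrp8. The genotypes share the range of sums from 3127 to 4069 FPKM. There ERβKO replicate 3, with 471 FPKM of Akr1c18 in its sum, lies below WT replicates 2 and 3 for both genes.

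Vldlr, the closest relative of Lrp8 and with it a receptor of reelin, did not pass the test. Vldlr (chromosome 19, plus strand, GRCm38, chr19:27216484-27254231) had 9.85, 11.5, 8.05, 9.54 and 12.4 FPKM in the WT and 10.2, 9.09, 8.08 and 10.4 FPKM in the ERβKO ovaries. Its ranges overlapped, and its log2 fold change was -0.16 (SE 0.106, 95% interval -0.394 to 0.0776, edgeR adjusted p = 0.441). The ratio of Lrp8 to Vldlr, both in FPKM, was 2.42, 0.315, 0.416, 1.4 and 1.87 in WT and 0.14, 0.115, 0.31 and 0.101 in ERβKO. By FPKM Lrp8 thus exceeded Vldlr in 3 of 5 WT ovaries and in 0 of 4 ERβKO ovaries, though the highest ERβKO ratio and the lowest WT ratio were close. From normalised counts per kilobase of exon, a scale described below, the ratio was 1.28, 0.248, 0.34, 0.906 and 1.5 in WT and 0.0857 to 0.194 in ERβKO, so that Lrp8 exceeded Vldlr in 2 of 5 WT ovaries there.

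Lrp11, a member with little known function and a single-pass membrane protein, was the other gene called lower. It lies on the plus strand of chromosome 10 (GRCm38, chr10:7589800-7625483). Lrp11 stood at 4.57, 4.28, 3.12, 4.81 and 12.4 FPKM in WT replicates 1 to 5 and at 1.73, 1.29, 2.69 and 1.86 FPKM in ERβKO replicates 1 to 4. WT replicate 5 was far above the other WT ovaries, and the lowest WT ovary, replicate 3, was near the highest ERβKO ovary. The mean was 5.83 ± 3.72 FPKM (SD, n = 5) in WT and 1.89 ± 0.585 FPKM (SD, n = 4) in ERβKO, and the log2 fold change of the count was -1.63 (SE 0.353, 95% interval -2.41 to -0.847, edgeR adjusted p = 0.0460). The counts behind these values were 124 to 484 in WT and 75 to 128 in ERβKO, the fewest of the family. Lrp11 was also highest in WT replicate 5, where the luteal markers had their highest sum, and the part of luteal tissue in its difference was not tested.

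The FPKM of these 2 genes depend on which transcripts were assigned. Dividing the TMM-normalised count per 1000000 by the summed exon length in kilobases gave 13.0, 2.73, 2.72, 9.03 and 17.2 for Lrp8 in WT and 1.07, 0.741, 1.59 and 0.845 in ERβKO. On this scale WT replicate 5 and not replicate 1 was the highest. For Lrp11 it gave 5.93, 4.78, 2.38, 6.07 and 10.8 in WT and 2.16, 1.68, 1.7 and 2.18 in ERβKO. The genotypes still lay apart for both, as for 4.04% of tested genes in this direction, but the gap for Lrp11 shrank to 2.38 against 2.18. The ratio of the 2 scales ran from 0.766 to 1.58 over the ovaries for Lrp11 and from 1.23 to 1.83 for Lrp8. It ran from 0.906 to 1.22 for Lrp5 and from 0.863 to 0.952 for Lrp1.

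The windows before annotated starts are printed for Lrp8 and Lrp11, the members that were called lower, and for Vldlr, the relative of Lrp8 that was not called. RefSeq promoter windows on GRCm38.p6 (250 bases before a start to 50 after it) were held for 6 of the 10 members, and not for Lrp4, Lrp5, Lrp6 and Lrp12. Bases within an exon of GENCODE M21 and those after the start are left out, and matches to the motifs named below are in capitals. The first Lrp8 window (chr4:107802635-107802841, plus strand) lies behind the first exon of the coding transcripts in GENCODE M21 and before the start of a shorter transcript, and the other Lrp8 window shown (chr4:107830703-107830952, plus strand) lies before a start further within the gene. RefSeq has another inner window of Lrp8, chr4:107822911-107823210, which held no match to any motif searched and is not printed, and a further window of Vldlr that is not printed. The Lrp11 window is chr10:7589567-7589799 and the Vldlr window chr19:27216234-27216483, both on the plus strand.
Lrp8 first window: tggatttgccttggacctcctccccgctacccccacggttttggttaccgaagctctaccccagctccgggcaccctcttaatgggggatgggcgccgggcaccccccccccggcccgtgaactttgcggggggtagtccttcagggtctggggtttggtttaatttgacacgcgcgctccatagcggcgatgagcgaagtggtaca
Lrp8 window further within the gene: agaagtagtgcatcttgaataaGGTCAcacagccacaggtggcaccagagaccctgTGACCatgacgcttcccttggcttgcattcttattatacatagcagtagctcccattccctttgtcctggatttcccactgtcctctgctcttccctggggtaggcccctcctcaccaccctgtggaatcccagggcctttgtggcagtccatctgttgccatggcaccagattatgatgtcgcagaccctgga
Lrp11: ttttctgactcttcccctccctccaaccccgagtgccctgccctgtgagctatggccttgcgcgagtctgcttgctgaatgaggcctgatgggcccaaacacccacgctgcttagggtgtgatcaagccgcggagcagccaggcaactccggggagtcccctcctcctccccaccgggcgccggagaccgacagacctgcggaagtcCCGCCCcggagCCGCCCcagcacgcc
Vldlr: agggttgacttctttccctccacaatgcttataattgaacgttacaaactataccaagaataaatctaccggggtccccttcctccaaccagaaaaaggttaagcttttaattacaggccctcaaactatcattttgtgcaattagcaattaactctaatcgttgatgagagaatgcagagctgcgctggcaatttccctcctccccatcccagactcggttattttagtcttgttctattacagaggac
Each window was searched on both strands for the full estrogen response element (GGTCANNNTGACC), its half-site (GGTCA), the extended half-site of the NR5A type (CAAGGTCA), the GC box (GGGCGG), the AP-1 site (TGANTCA) and the TATA box (TATAAA). The full element contains the half-site, and so does the extended half-site. Of the 3 Lrp8 windows 1, the inner window printed above, held 2 half-sites, 1 on each strand, which 40.5% of all 32817 RefSeq windows hold at least once. The Lrp11 window of 300 bases held 3 GC boxes on the minus strand, of which 2 are within the printed bases, and 35.6% of all windows hold at least 1. The window of Lrp2 held 2 GC boxes, and those of Lrp1 and the further one of Vldlr held 1 each. None of the members' windows held the full element (0.0701% of all windows), the extended half-site (1.56%), the AP-1 site (7.81%) or the TATA box (13.6%), which says only that these letters are not in these bases. The bases before the annotated start of the Lrp8 gene, chr4:107802261, lie in no window and were not searched.

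Lrp5 was the member called higher, and its values were the tightest of the 3 calls. Lrp5 (chromosome 19, minus strand, GRCm38, chr19:3584828-3686564) is a Wnt coreceptor with a large role in bone. It stood at 9.68, 6.58, 10.3, 8.57 and 7.67 FPKM in WT replicates 1 to 5 and at 12.5, 11.7, 12.2 and 12.2 FPKM in ERβKO replicates 1 to 4. The lowest ERβKO ovary was above the highest WT ovary, and the ERβKO ovaries lay within 1.07-fold of each other. The mean was 8.56 ± 1.49 FPKM (SD, n = 5) against 12.2 ± 0.353 FPKM (SD, n = 4), and the log2 fold change of the count was 0.51 (SE 0.0767, 95% interval 0.343 to 0.683, edgeR adjusted p = 0.0127). The normalised count per kilobase of exon gave 7.21 to 8.45 in WT and 10.2 to 12.1 in ERβKO, a separation in this direction that 3.92% of tested genes showed on this scale.

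Lrp6, the other Wnt coreceptor, did not differ in its mean. It lies on chromosome 6 (minus strand, GRCm38, chr6:134446476-134566965) and had 16.2, 14.3, 13.7, 14.5 and 14.7 FPKM in WT and 15.8, 14.4, 13.3 and 15.3 FPKM in ERβKO. The mean was 14.7 FPKM in each, with an SD of 0.923 and 1.14, and the 95% interval of the log2 fold change, -0.174 to 0.124, lies within the required change of 0.4 on both sides (-0.03, SE 0.0673, edgeR adjusted p = 0.873). Lrp6 was the more abundant of the 2 in every ovary. The ratio of Lrp5 to Lrp6 in FPKM was 0.599, 0.46, 0.753, 0.592 and 0.523 in WT and 0.791, 0.814, 0.922 and 0.797 in ERβKO, without overlap. Granulosa markers had a positive log2 fold change in 9 of 10 cases, beside 8337 of all 16722 tested genes. In edgeR Hsd17b1 was called, as were 1.72% of all tested genes. There 4 of the 10 had an unadjusted p under 0.05, as had 19.8% of all tested genes. DESeq2, which called 4.8% of tested genes, called Fshr, Inha, Hsd17b1 and Amhr2. The summed level of the 10 markers overlapped between the genotypes only at 679 to 685 FPKM, but their part in the difference of Lrp5 was not tested.

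Lrp4, the receptor of agrin at the neuromuscular junction and a binding partner of Wnt inhibitors, showed the same separation at a lower level and missed the call. Lrp4 (chromosome 2, plus strand, GRCm38, chr2:91457511-91513779) had 2.69, 2.42, 2.31, 2.74 and 2.15 FPKM in WT and 3.14, 3.28, 3.24 and 3.27 FPKM in ERβKO. The ERβKO values were all higher and varied by 1.05-fold. The log2 fold change was 0.35 (SE 0.0802, 95% interval 0.172 to 0.527) with an edgeR adjusted p of 0.0539, so that both the p and the required change of 0.4 were missed narrowly. In DESeq2 the adjusted p was 0.0037 at a log2 fold change of 0.34, which the required change still kept out. Lrp11, at 0.0460, and Lrp4, at 0.0539, were the members on either side of the threshold for the adjusted p.

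Lrp1 was the most abundant member in both genotypes. Lrp1, which clears proteases, remnants of lipoproteins and matrix proteins, lies on chromosome 10 (minus strand, GRCm38, chr10:127538161-127621148). It stood at 27.6, 23.4, 34.7, 25.4 and 20.7 FPKM in WT replicates 1 to 5 and at 36.1, 31.3, 35.1 and 32.0 FPKM in ERβKO replicates 1 to 4. WT replicate 3 was within the range of the ERβKO ovaries and the other WT ovaries were below it. The log2 fold change was 0.32 (SE 0.134, 95% interval 0.0200 to 0.615, edgeR adjusted p = 0.227), which did not pass. Without WT replicate 3 it became 0.44 with an adjusted p of 0.0496 in edgeR.

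Lrp2, the megalin of absorptive epithelia, had the widest relative spread of the members that were not called. Lrp2 (chromosome 2, minus strand, GRCm38, chr2:69424340-69586065) had 1.57, 2, 1.14, 2.97 and 2.44 FPKM in WT and 1.03, 2.99, 1.14 and 0.947 FPKM in ERβKO. ERβKO replicate 2 alone was at the height of the highest WT ovary, and the other 3 ERβKO ovaries were about at or below the lowest. The log2 fold change was -0.45 (SE 0.371, 95% interval -1.27 to 0.372, edgeR adjusted p = 0.538), an interval that takes in a fall as well as a rise. The 6 oviduct epithelium markers summed to 1391, 2093, 1790, 2521 and 1732 FPKM in WT and to 2072, 1992, 1631 and 1702 FPKM in ERβKO. The sum was highest in WT replicate 4, as was Lrp2 within WT, and within ERβKO it was highest in replicate 1. Ovgp1 makes up most of this sum, and of the 6 markers the other 5 were at their highest within ERβKO in replicate 2. Within WT these other markers were divided. Sox17 and Cfap126 were highest in replicate 4, as was Lrp2, but Pax8, Foxj1 and Rsph1 were highest in replicate 2. The part of oviduct tissue in the spread of Lrp2 was not tested.

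Lrp10 and Lrp12 did not pass the test and varied little between ovaries. Lrp10, a receptor of the trans-Golgi network and endosomes, lies on chromosome 14 (plus strand, GRCm38, chr14:54464164-54471497) and had 13.0, 13.4, 11.9, 11.8 and 12.2 FPKM in WT and 12.7, 13.1, 13.9 and 11.1 FPKM in ERβKO. Its log2 fold change was -0.01 (SE 0.0730, 95% interval -0.170 to 0.154, edgeR adjusted p = 0.963). Of its exon length 10.6% is shared with a gene on the opposite strand, and the sources used here do not say if reads were counted by strand. Lrp12, on chromosome 15 (minus strand, GRCm38, chr15:39870603-39943994), had 4.73, 4.06, 4.51, 3.8 and 4.65 FPKM in WT and 3.77, 3.57, 4.84 and 4.37 FPKM in ERβKO. Its log2 fold change was -0.11 (SE 0.117, 95% interval -0.370 to 0.148, edgeR adjusted p = 0.641). Both genes varied less than 1.5-fold among the ovaries of a genotype.

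**Figure D3:**
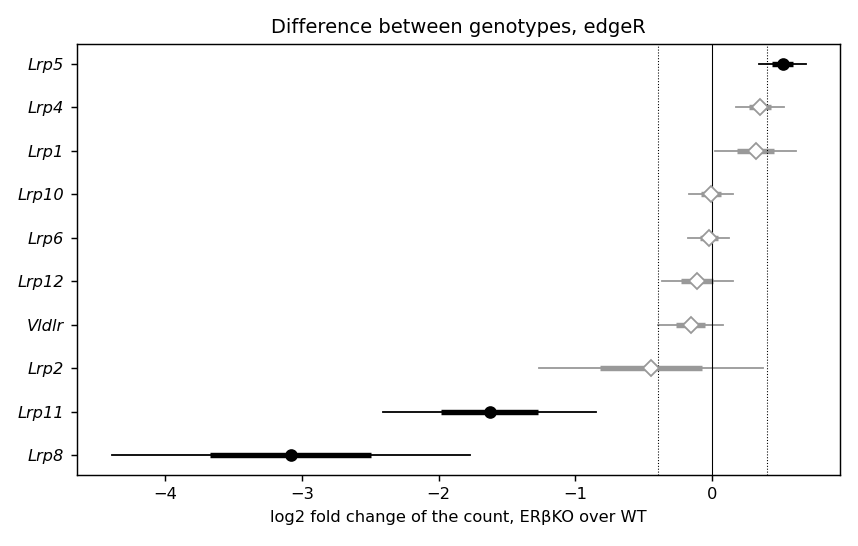
Log2 fold change of the count (ERβKO over WT, edgeR) of the 10 members, with 1 SE as the thick bar and the 95% interval as the thin line. Filled circles are the 3 called members, open diamonds the other 7, and the dotted lines mark the required change of 0.4 in either direction.

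The order of the members per length depended on the length used, and it is given first by FPKM, where the transcripts assigned by StringTie set the length. In WT the means fell from Lrp1 (26.4 FPKM) over Lrp6 (14.7), Lrp8 (13.4), Lrp10 (12.5), Vldlr (10.2), Lrp5 (8.56), Lrp11 (5.83), Lrp12 (4.35) and Lrp4 (2.46) to Lrp2 (2.02). Of the neighbours in this order Lrp1 and Lrp6 had ranges that did not overlap, and likewise Lrp12 and Lrp4. All other neighbours overlapped. In ERβKO the means fell from Lrp1 (33.6 FPKM) over Lrp6 (14.7), Lrp10 (12.7), Lrp5 (12.2), Vldlr (9.44), Lrp12 (4.14), Lrp4 (3.23), Lrp11 (1.89) and Lrp2 (1.53) to Lrp8 (1.51). There Lrp6 overlapped with Lrp10, Lrp10 with Lrp5, Lrp11 with Lrp2 and Lrp2 with Lrp8, and the other neighbours did not overlap. By normalised counts per kilobase of exon Lrp10 (mean 16.8 in WT and 16.7 in ERβKO) stood before Lrp6 (13.9 and 13.7) in both genotypes, and Lrp8 stood behind Vldlr in WT (8.93 against 10.1). Lrp8 was thus the third in WT by FPKM and the fifth by counts per kilobase, and the last in ERβKO on both scales, where its range overlapped with that of Lrp2.

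The members together summed to 113.6, 85.5, 93.1, 97.4 and 112.4 FPKM in WT and to 98.4, 91.7, 97.0 and 92.5 FPKM in ERβKO, and these sums overlapped. Lrp8 made up 20.9%, 4.22%, 3.6%, 13.7% and 20.5% of the sum in the WT ovaries and 1.46%, 1.14%, 2.59% and 1.13% in the ERβKO ovaries. By counts per kilobase its shares were smaller, 11.6%, 2.95%, 2.74%, 8.84% and 15.1% in WT and 0.775% to 1.49% in ERβKO, and the WT mean was 8.24% in place of 12.6%. Its share in WT replicates 2 and 3 was closer to the ERβKO ovaries than to the other WT ovaries. Lrp5 took 6.83% to 11.1% in WT and 12.6% to 13.2% in ERβKO. Without Lrp8 and Lrp11 the other 8 members summed to 76.9 to 86.6 FPKM in WT and 89.4 to 95.3 FPKM in ERβKO, apart on this scale, while on the scale of normalised counts per kilobase the ranges, 84.9 to 94.2 and 93.2 to 103, overlapped. Lrp8 and Lrp11 are the members called lower in these data, so that leaving them out by itself moves the comparison toward higher sums in ERβKO.

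**Figure D4:**
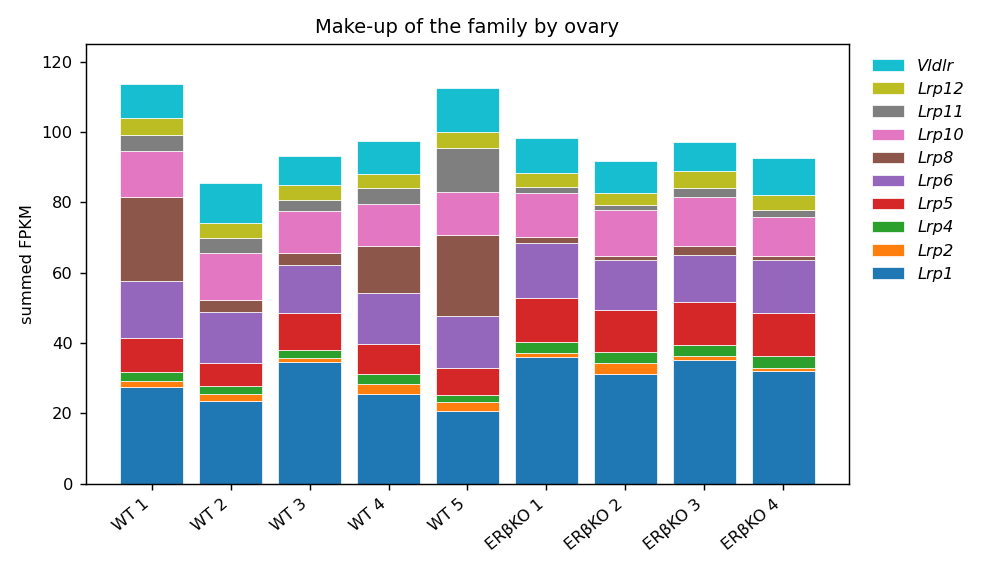
FPKM of the 10 members stacked for each of the 9 ovaries (linear axis from 0). The Lrp8 segment is thick in WT replicates 1, 4 and 5 and thin in the other ovaries, and the height of the stacks, 85.5 to 113.6 FPKM, overlaps between the genotypes.

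The genes that work with the family were called about as often as genes at large. Of 95 genes on 7 lists of relatives, ligands, adaptors, chaperones and regulators, 78 were tested. In edgeR 1 was called, as higher, and 0 as lower, while 15 had an unadjusted p under 0.05, 7 of them with a lower level in ERβKO. These are 1.28% called, beside 1.72% of all tested genes, and 19.2% at an unadjusted p under 0.05, beside 19.8%, so that neither count sets these genes apart. Their median log2 fold change was 0.03. The called gene was Rspo1, a secreted protein that raises Wnt signalling through Lrp5 and Lrp6 and drives ovary determination. It had 8.63, 10.3, 8.74, 9.78 and 9.87 FPKM in WT and 12.7, 14.3, 13.4 and 13 FPKM in ERβKO, without overlap (log2 fold change 0.47, SE 0.0830, edgeR adjusted p = 0.0226). In DESeq2 4 of the 78 were called, beside 4.8% of all tested genes. The 3 beside Rspo1, Lgr4, Rapsn and Rbp4, are named after their values were seen.

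Among the 21 extracellular regulators of Lrp5 and Lrp6, 15 were tested, with a median log2 fold change of 0.02. Lgr4, a receptor of R-spondins, had 18.2, 12.8, 13.1, 18.9 and 20.3 FPKM in WT and 12, 12, 11.5 and 12.9 FPKM in ERβKO. Its 3 highest ovaries were WT replicates 1, 4 and 5, as for Lrp8, and its log2 fold change of -0.49 did not pass in edgeR (SE 0.148, adjusted p = 0.113). Dkk3 (0.10, adjusted p = 0.733) and Apcdd1 (0.27, adjusted p = 0.404), the other 2 of the 3 most abundant regulators, did not pass in edgeR.

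Of the ligands, reelin itself was low. Reln, which binds Lrp8 and Vldlr, had 0.996 to 1.92 FPKM in WT and 1.58 to 1.64 FPKM in ERβKO (log2 fold change 0.13, SE 0.135, edgeR adjusted p = 0.631). Dab1, the adaptor that carries the reelin signal inside the cell, had 0.401 to 2.26 FPKM in WT and 0.922 to 2.08 FPKM in ERβKO (0.37, SE 0.363, edgeR adjusted p = 0.618). Apoe, Clu and Psap were the most abundant of the 13 tested ligands, and none passed in edgeR. Apoe had 265 ± 78.7 FPKM (SD, n = 5) in WT and a log2 fold change of 0.18 (edgeR adjusted p = 0.595), Clu 0.32 (0.195) and Psap -0.34 (0.0957). The list had a median log2 fold change of 0.18, with 0 genes called in edgeR or DESeq2 and 4 (30.8%) at an unadjusted p under 0.05 in edgeR, to be read against 19.8% of all tested genes here and for the lists that follow. The 18 adaptors and kinases of reelin signalling had a median of 0.03, with 0 called in either tool and 2 (11.1%) at an unadjusted p under 0.05, and the most abundant were Dab2 (-0.12), Crk (-0.13) and Pafah1b1 (-0.08).

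Of the relatives that are not members, Lrp3 had 2.22 to 2.98 FPKM in WT and 1.98 to 3.3 FPKM in ERβKO (0.03, edgeR adjusted p = 0.929), and Dgcr2 (0.03, adjusted p = 0.791) and Cd320 (0.11, adjusted p = 0.499), both abundant relatives, were not called. Lrp1b had 0 to 4 counts in a WT ovary and 2 to 7 in an ERβKO ovary and was not tested. The relatives had a median log2 fold change of 0.15 over 8 tested genes, with 0 called in edgeR or DESeq2 and 1 (12.5%) at an unadjusted p under 0.05 in edgeR.

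Of the proteins that fold, carry and turn over the receptors 0 were called in edgeR or DESeq2, with 1 (7.14%) at an unadjusted p under 0.05 in edgeR. Lrpap1, the chaperone that keeps ligands off the receptors on their way to the surface, had 52.4 to 62.3 FPKM in WT and 49.9 to 55.4 FPKM in ERβKO (log2 fold change -0.06, SE 0.0644, edgeR adjusted p = 0.663). Mylip, the ligase that sends Vldlr and Lrp8 to degradation, had 7.95 to 11.4 and 6.52 to 10.1 FPKM (-0.17, SE 0.146, edgeR adjusted p = 0.548). Ncstn (0.05) and Psenen (0.08), both of the gamma-secretase that cleaves the receptors, did not pass, and the list of 14 tested genes had a median of -0.06.

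Of the partners of Lrp4, Agrn had a log2 fold change of 0.16 (edgeR adjusted p = 0.511), Dok7 of -0.51 (0.151) and Chrnb1 of 0.07 (0.858). Rapsn, which gathers acetylcholine receptors at the synapse, had 0.318 to 1.4 FPKM in WT and 1.18 to 3.3 FPKM in ERβKO, and missed the call in edgeR (1.68, SE 0.424, adjusted p = 0.0681). The median of the 5 tested partners was 0.16, with 0 called and 3 (60%) at an unadjusted p under 0.05 in edgeR and 1 called in DESeq2 (Rapsn). Of the partners and cargo of Lrp2, Tcn2 (-0.13), Dab2 and Ap2b1 (0.03) were the most abundant, and the 6 tested had a median of -0.08, with 0 called and 1 (16.7%) at an unadjusted p under 0.05 in edgeR and 1 called in DESeq2 (Rbp4), while Cubn, the receptor that works with Lrp2, was too low to be tested.

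The calls of Lrp8 and Lrp11 were lost when most single libraries were left out, and that of Lrp5 was not. Leaving out each ovary in turn, Lrp8 and Lrp11 were called in 2 of 9 fits each, those without WT replicate 2 and without WT replicate 3, and Lrp5 in 9 of 9. These 2 fits were also the ones with more genes called at large, 919 and 357, beside 287 with all 9 ovaries. The log2 fold change stayed between -3.32 and -2.70 for Lrp8 (edgeR adjusted p 0.00888 to 0.115), between -1.83 and -1.31 for Lrp11 (0.0108 to 0.145) and between 0.48 and 0.56 for Lrp5 (0.0108 to 0.0347). With the 3 WT and 4 ERβKO libraries numbered below 200, and with limma on the FPKM values, none of the 3 was called. The libraries numbered above 200 were WT replicates 4 and 5, and no ERβKO library was among them. Both are ovaries on which the fold of Lrp8 rests, and WT replicate 5 had the highest Lrp11. Without them the log2 fold change was -2.52 for Lrp8, -1.16 for Lrp11 and 0.49 for Lrp5. The part of the library series in these differences was not tested.

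**Figure D5:**
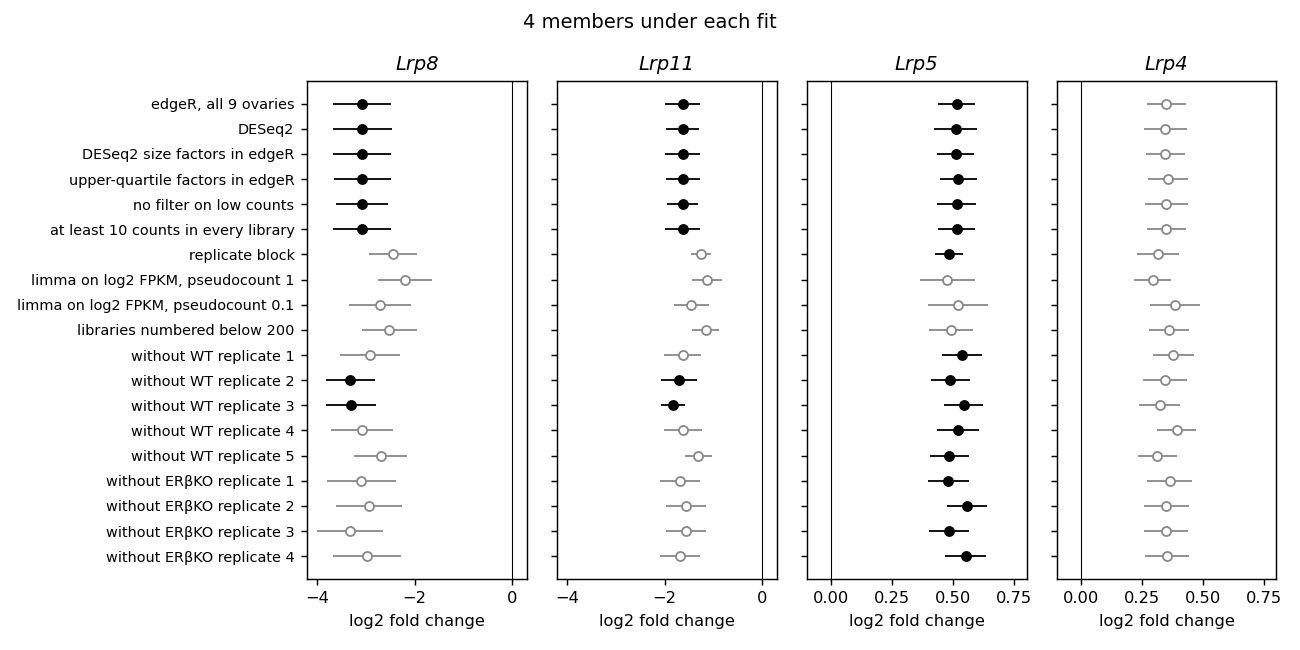
Log2 fold change with 1 SE of Lrp8, Lrp11, Lrp5 and Lrp4 (ERβKO over WT) in edgeR on all 9 ovaries and in 18 other fits. Points are filled where the gene was called and open where not. The axes of Lrp5 and Lrp4 cover a narrower range of log2 fold changes than those of Lrp8 and Lrp11, so that lengths cannot be compared between these panels. The direction is the same in every fit, and Lrp8 and Lrp11 are called in 7 of the 18, Lrp5 in 15 and Lrp4 in 0.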

How the data were processed

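RNA-seq of 5 WT and 4 ERβKO ovaries was used. Per the study's methods and notes, the authors sequenced stranded libraries from polyadenylated RNA as pairs of 150 bp (bcl2fastq 2.20.0.422), trimmed with Trim Galore, mapped to GRCm38 (mm10) with STAR and counted with featureCounts. The deposited counts are raw counts per gene. The authors computed the deposited FPKM, TPM and coverage per gene with StringTie. TPM and coverage were not used for a result.

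Counts were filtered with filterByExpr, TMM-normalised and fitted by genotype with edgeR 4.0.16 in R 4.3.3, over 16722 genes. The standard error is the log2 fold change over the square root of F. DESeq2 1.42.0, which the study used, and limma 3.58.1 on log2(FPKM + 1) or log2(FPKM + 0.1) (fold changes on that scale, which understates low genes) were alternatives, beside other size factors, other filters, a replicate block, single libraries left out and the libraries numbered below 200. The fit was tested on simulated counts, where it found 166 of 196 changed genes with 10 false calls among 16551. The simulated ovaries were independent draws at the dispersions of this fit, scored by an adjusted p under 0.05 alone. They share no variation in cell types or cycle stage, so that the simulation does not measure how far the calls above hold. Exon lengths came from GENCODE M21, in which 45229 of 46078 gene IDs were found, and counts per kilobase were added after seeing the data. Windows came from RefSeq (GRCm38.p6). Tables were made in Python 3.11.15 with pandas 2.3.3 and SciPy 1.17.1.

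The members and all lists were chosen with earlier results of these data known. All members, the called companions, the 3 most abundant of each list and Lrp1b, Lrp3, Reln, Dab1, Lrpap1 and Mylip are named, except that some genes under this rule are not reported here. P-values set the difference between the genotypes against the spread within each genotype among these 9 ovaries. In edgeR the estimate of that spread also draws on the other genes. Protein sequences were planned and are not used here.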

Additional observations from a re-analysis of the deposited data

Results flagged for a closer look

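In a group of 4 or 5 ovaries a value was singled out when its gap to the nearest other ovary took up an unusually large part of the range by Dixon's criterion. Of 80 groups of ovaries tested in this way 3 had such a value, where chance at 1 in 20 gives about 4. Lrp11 in WT replicate 5 stood at 12.4 FPKM, while the other 4 WT ovaries lay between 3.12 and 4.81 FPKM. Lrp2 in ERβKO replicate 2 stood at 2.99 FPKM, while the other 3 ERβKO ovaries lay between 0.947 and 1.14 FPKM. Crk, an adaptor of reelin signalling, stood at 26.8 FPKM in ERβKO replicate 3, while the other 3 lay between 23.4 and 23.5 FPKM. Lrp8 had no such value.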

How the results depend on the processing

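The number of genes called, 287 in edgeR, became 802 with DESeq2, 191 with limma on log2(FPKM + 1) and 51 with the libraries numbered below 200, and ran from 60 to 919 with single libraries left out. The lowest of these was without ERβKO replicate 2 and the highest without WT replicate 2, and it was also changed by over 1.5 times without WT replicates 1 (118), 4 (161) and 5 (110) and without ERβKO replicates 3 (152) and 4 (80). The number of members called, 3, became 0 with limma on log2(FPKM + 1) and on log2(FPKM + 0.1) and 0 with the libraries numbered below 200, and ran from 1 to 4 with single libraries left out. It was 4 without WT replicate 3, when Lrp1 was added, 3 without WT replicate 2 and 1 without each of the other 7. The companion genes called, 1, became 4 with DESeq2 and ran from 0 to 3, with 0 without WT replicate 1 and without ERβKO replicates 2 and 4, 2 without WT replicate 3 and 3 without WT replicate 2. The cause was not tested.

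The labels number the replicates in both genotypes alike, but same-numbered ovaries did not deviate together (correlations 0.0948, 0.13, -0.0427 and -0.0105), and none was most like its own number. With the replicate block 155 genes and 1 member were called, Lrp5 (0.48, edgeR adjusted p = 0.0309), while Lrp8 (-2.44, 0.0915) and Lrp11 (-1.25, 0.0527) were not.

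Of 180 log2 fold changes of the 10 members under 18 alternatives 144 kept both direction and call or lack of a call, 25 lost the call, 1 gained it and 10 changed sign. Only Lrp8, Lrp11 and Lrp5 had a call to lose, and they kept it in 7, 7 and 15 of the 18 alternatives. The changes of sign were those of Lrp6, which became 0.003239 and 0.003369 with limma at the pseudocounts 1 and 0.1, 0.01086 without WT replicate 1 and 0.01131 without ERβKO replicate 3 (lowest -0.05065, without WT replicate 3), and of Lrp10, which became 0.02039 and 0.02164 with limma, 0.003352 without WT replicate 1, 0.01109 without WT replicate 2, 0.00223 without ERβKO replicate 1 and 0.05429 without ERβKO replicate 4 (lowest -0.06243, without ERβKO replicate 3). Taking the highest StringTie row of a gene in place of the sum changed no value, as each member has 1 row.

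With 5 against 4 ovaries of unknown cycle stage, an uncalled member is not shown to be level, and the intervals of Lrp1 and Lrp2 are wide. Lrp11 rests on 75 to 484 counts an ovary.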

Other observations

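Mesdc2, the chaperone of Lrp5 and Lrp6 in the endoplasmic reticulum, differed between the deposited scales. Its FPKM were 22.1, 21.3, 23.6, 17.9 and 19.7 in WT and 31, 29.1, 32.1 and 22.7 in ERβKO, whereas its counts gave a log2 fold change of -0.08 (SE 0.0663, edgeR adjusted p = 0.555). Lgr5, a receptor of R-spondins, had 7.21 to 9.04 FPKM in WT and 5.49 to 7.2 FPKM in ERβKO, which did not overlap, and missed the call (-0.39, SE 0.106, edgeR adjusted p = 0.0845).

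Lpl, which frees fatty acids from lipoproteins and also binds the receptors, had 28.1 to 43.6 FPKM in WT and 164, 69.6, 43.1 and 24.5 FPKM in ERβKO replicates 1 to 4 (log2 fold change 1.06, SE 0.422, edgeR adjusted p = 0.202). Rbp4, the retinol carrier that Lrp2 takes up, had 3.06 to 5.63 FPKM in WT and 18.4, 12.6, 8.69 and 2.61 FPKM in ERβKO (1.22, SE 0.425, edgeR adjusted p = 0.152). The 7 adipocyte markers summed to 569, 178, 253 and 104 FPKM in the same 4 ovaries and to 90.8 to 230 FPKM in WT, and their part in the values of both genes was not tested. These 4 genes were picked after their values were seen.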
